A study of Danio rerio with 3 samples.

Results

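The genes described here are 10 genes of retinoic acid metabolism and of dorsoventral identity, taken by their symbols from the gene table of the deposited files: aldh1a2, aldh1a3, rdh10a, cyp26a1, cyp26c1, crabp1a, crabp2a, dhrs3a, tbx5a and vax2. All 10 were found among 27773 annotated features, and all 10 had enough counts for each comparison below. The data are single cell RNA sequencing of Gfap-positive cells sorted from larval zebrafish retina, with 1 library for each of 3 conditions. All 3 lines carried the transgenes her4.1:dRFP and gfap:GFP, and the no ablation control carried no other. Fish of the Lws2-ablation line had lws2:nfsb-mCherry as well, and those of the Sws2-ablation line had sws2:nfsb-mCherry. The nfsb gene encodes nitroreductase, which turns metronidazole into a toxin, and was driven by the promoter of the red cone opsin (lws2) or the blue cone opsin (sws2). Larvae of every condition, the control included, received 10 mM metronidazole for 48 h from 6 days post fertilisation, and retinas were collected at 9 days post fertilisation, 3 days post injury. Because each condition is 1 library, no comparison between conditions has a replicate. Intervals given here are exact 95% intervals that cover counting error only, and no p-value is given.

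Retinoic acid is a small signalling molecule made from vitamin A. Rdh10 enzymes oxidise retinol to retinaldehyde, Aldh1a enzymes oxidise retinaldehyde to retinoic acid, and Dhrs3 enzymes reduce retinaldehyde back to retinol. Cyp26 enzymes degrade retinoic acid, and Crabp proteins bind it inside the cell. In the zebrafish eye aldh1a2 and the transcription factor gene tbx5a belong to the dorsal retina, and aldh1a3 and the transcription factor gene vax2 to the ventral retina. There cyp26 genes lie in a band between them that is low in retinoic acid. Müller glia are the radial glia of the retina, and in zebrafish they re-enter the cell cycle after injury and give rise to new neurons.

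Cells with 200 or more genes numbered 8325 in the control, 10520 in Lws2-ablation and, for the Sws2 label, 7891, with 43011757, 75110026 and 52574675 unique molecular identifiers (UMIs, counted molecules) in them and medians of 4382, 5883.5 and 5030 UMIs per cell. Clusters named Müller glia from markers such as glula, rlbp1a and apoeb held 5225, 3040 and 3086 cells, cycling cells 515, 1926 and 1348, and the differentiated neurons were photoreceptor-lineage, bipolar and other inner retinal clusters, summed. Within glia the median depth was 4532, 5908 and 4520.5 UMIs. EGFP, the gfap reporter, was counted in 67.9% of control cells and 50.9% of Lws2-ablation cells but in 0.507% of cells of the third library, although that line should carry the reporter, and it is referred to throughout by its label only, as the library labelled Sws2. RFP was counted in 70.5 to 82.6% of cells of all 3 libraries. Of the targeted opsins, opn1lw2 stood at 103, 536 and 75.4 CPM (counts scaled to the UMI total of the same cells), and opn1sw2 at 11.4, 11.5 and 14.6 CPM, in the control, Lws2-ablation and the library labelled Sws2. Between 17 and 29 cell barcodes were shared by each pair of libraries. The sources name both v2 and v3 reagent kits without saying which library used which, so kit and condition cannot be told apart.

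Among the enzymes, cyp26a1 of the 2 that degrade retinoic acid had the highest level in Müller glia of all 3 libraries, as 3′ UMI counts, which take no account of gene length. It (ENSDARG00000033999) stood at 822 CPM in the control (interval 810 to 833), 521 CPM in Lws2-ablation (511 to 532) and 259 CPM in the library labelled Sws2 (251 to 267). Its partner cyp26c1 (ENSDARG00000056029) stood at 243, 170 and 101 CPM. Both were highest in the control and lowest in the library labelled Sws2, and the intervals of the 3 libraries did not overlap for either gene. After each glial cell was thinned to 2000 UMIs, which left 4676, 2433 and 2347 cells, a cyp26a1 UMI was found in 35.7, 25.1 and 13.5% of glia and a cyp26c1 UMI in 18.7, 11.2 and 9.12% of them. Without thinning the shares were 42.4, 29.8 and 15.4% for cyp26a1. Where present, cyp26a1 was abundant, with a mean of 4.81, 4.43 and 3.60 UMIs per positive thinned cell and up to 91, 120 and 99 UMIs in a single glial cell.

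The enzymes that make retinaldehyde and retinoic acid were present at unequal levels. In glia rdh10a (ENSDARG00000058730), which makes retinaldehyde, was found at 408, 262 and 174 CPM in the control, Lws2-ablation and the library labelled Sws2, and in 31.5, 21.7 and 19.7% of thinned glia. The ventral enzyme gene aldh1a3 (ENSDARG00000076933) stood at 42.6 CPM (interval 40.1 to 45.2), 33.7 CPM (31.2 to 36.5) and 15.8 CPM (14 to 17.9). Dorsal aldh1a2 (ENSDARG00000053493) was lower, at 9.20 CPM (8.06 to 10.5), 17.6 CPM (15.8 to 19.7) and 7.71 CPM (6.41 to 9.19), and only 1.30, 2.84 and 1.41% of thinned glia held a UMI of it. For aldh1a2 the Lws2-ablation library was the high one and the other libraries overlapped. The reverse enzyme gene dhrs3a (ENSDARG00000044982) stood at 14, 17.2 and 9.07 CPM, from 354, 318 and 146 UMIs.

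The binding proteins differed from the enzymes in breadth. crabp1a (ENSDARG00000045926) was found in most glia, in 54.4, 75.2 and 64.8% of thinned cells, at 461, 799 and 649 CPM, and here the control was the lowest of the libraries. crabp2a (ENSDARG00000073978) was scarce in glia, at 13.8, 15.5 and 10.6 CPM. Of the position factors, tbx5a (ENSDARG00000024894) stood at 7.02 CPM (interval 6.03 to 8.14), 5.79 CPM (4.74 to 6.99) and 5.78 CPM (4.67 to 7.08), with overlap between all libraries. vax2 (ENSDARG00000058702) stood at 2.46 CPM (1.89 to 3.15), 7.19 CPM (6.02 to 8.53) and 7.83 CPM (6.52 to 9.32), so the control lay below both other libraries. These are low counts, 62 vax2 UMIs in all control glia, and tbx5a and vax2 were each detected in at most 1.83% of thinned glia of any library.

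Free RNA can add to such shares, and photoreceptor-lineage cells, with median depths of 3312, 4517.5 and 4428 UMIs, were taken to gauge it. In them the thinned share was 9.45, 2.12 and 1.12% for cyp26a1, 2.49, 0.637 and 1.40% for cyp26c1, 16.9, 1.27 and 2.25% for rdh10a and 0.498, 0.637 and 0% for aldh1a2, each below the share in glia. The aldh1a2 shares rest on very few cells. In the control and the library labelled Sws2 a separation of its overall glial share from these cells is therefore not shown. Within control glia it was found in 2.45% of thinned cells of cluster 0 and 0.163% of cluster 2. For vax2 the share in photoreceptor-lineage cells was 0, 0.849 and 0.562%. For crabp2a it was 3.98, 4.25 and 2.25%, beside 2.74, 2.67 and 1.32% in glia as a whole. The overall glial share of crabp2a is therefore not separated from that in photoreceptor-lineage cells. Among glial clusters the crabp2a share was 6.37, 6.39 and 2.31% in the largest and 0.325, 0.429 and 0.340% in another (clusters 0 and 2). In the control the share in photoreceptor-lineage cells was 6.97% for aldh1a3 and 2.49% for tbx5a (5 of 201 cells, interval 0.813 to 5.71%). These are at or above the glial 5.86 and 1.5%. The glial shares of these genes in the control are therefore not separated from the shares in photoreceptor-lineage cells. Over all neuron classes of the control, aldh1a3 stood at 16.5 CPM beside 42.6 CPM in glia, and tbx5a at 2.86 beside 7.02 CPM. For crabp2a the shares in glial cluster 2 were below those in photoreceptor-lineage cells, so the latter are not a floor. Whether photoreceptor-lineage cells hold RNA of their own for these genes was not tested.

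**Figure D1:**
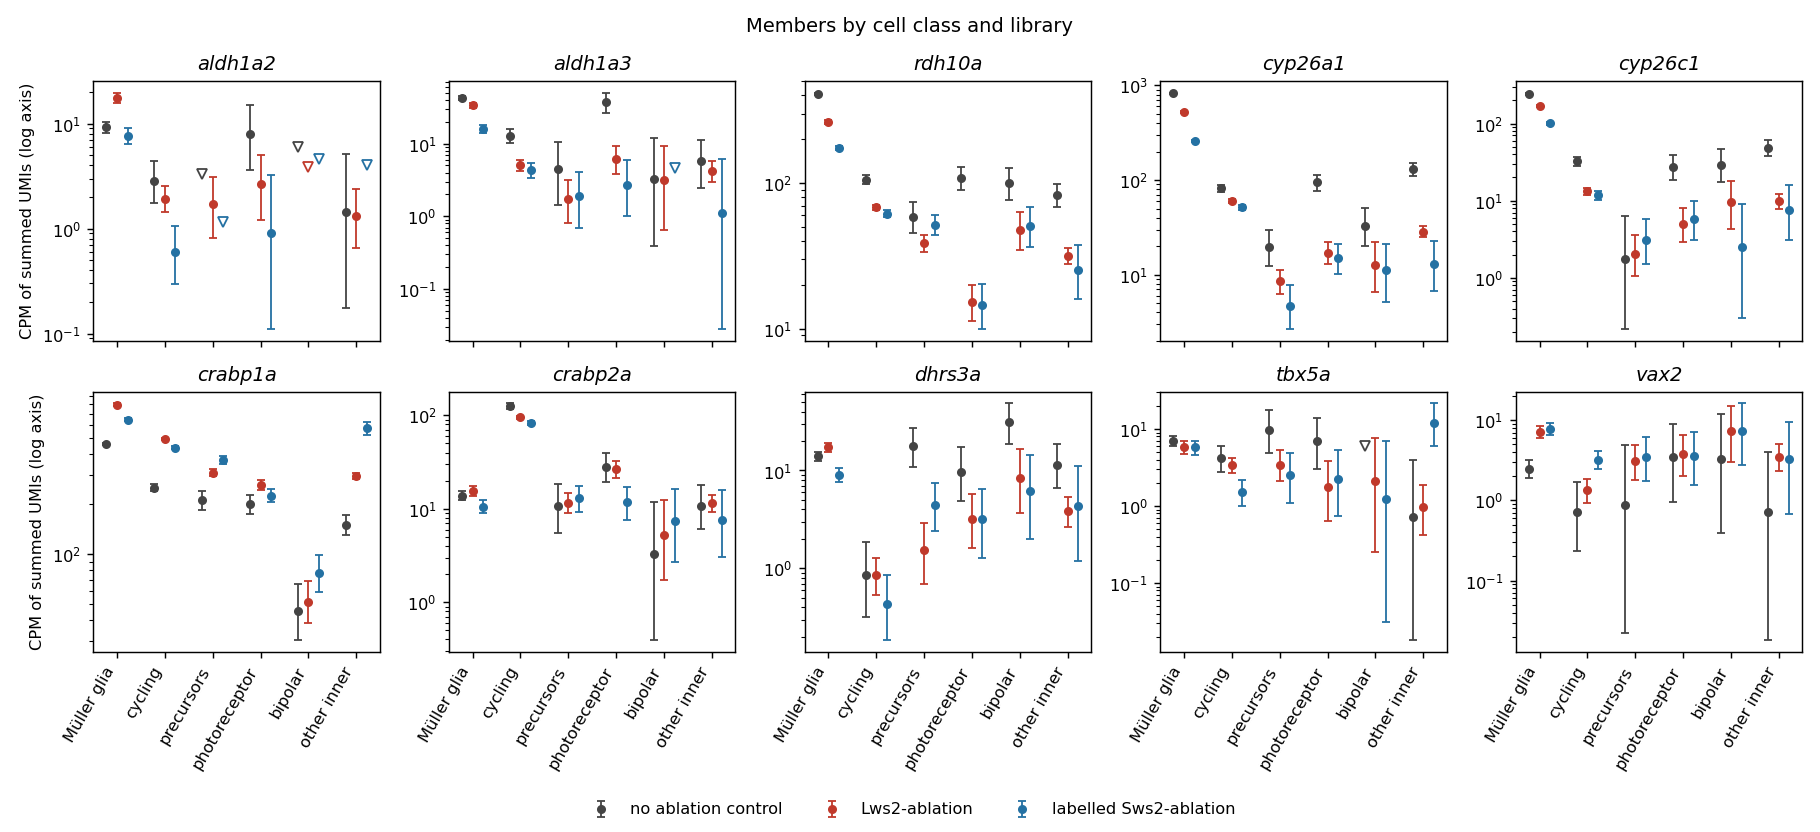
Level of each gene (CPM of UMIs summed over the cells of a class, log axis) in 6 cell classes of the 3 libraries, with exact 95% Poisson intervals, and open triangles at the upper limit of the interval where a class had 0 UMIs. Among these 6 classes the points for cyp26a1, cyp26c1, rdh10a and crabp1a are highest in Müller glia in every library (cyp26a1 822, 521 and 259 CPM), whereas crabp2a is highest in cycling cells (125, 95.2 and 83.5 CPM). Unnamed clusters are not shown.

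Most of the genes were lower in cycling cells than in Müller glia. A gene was called where the ratio of its CPM was 2-fold or more with an interval excluding 1 in all 3 libraries. Of the 10 genes, 7 were called higher in glia, against 23.4% of the 12401 genes compared, and 1 was called lower, against 9.75%. The classes were made from the same cells, so these ratios are descriptions and not tests. The degrading enzymes had the highest ratios among the abundant genes. The glia to cycling ratio of cyp26a1 was 9.99 (interval 9.20 to 10.9) in the control, 8.77 (8.31 to 9.25) in Lws2-ablation, with 5.01 (4.67 to 5.38) in the library labelled Sws2, and that of cyp26c1 was 7.47, 12.8 and 8.59. For comparison the glial genes glula and rlbp1a had ratios of 17.9, 30.1 and 31.9 and of 10.4, 14.1 and 15.5.

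Among the synthetic enzymes, rdh10a was 3.87, 3.86 and 2.82 times as high in glia as in cycling cells, aldh1a3 was 3.33, 6.74 and 3.68 times as high, and aldh1a2 was 3.21, 9.14 and 13 times as high. dhrs3a had the highest ratios of the set, 16.3 (interval 7.42 to 44.8), 20.1 (13.2 to 32.3) and 21.1 (10.4 to 49.7), resting on 6, 23 and 8 UMIs in cycling cells. vax2 was also called higher in glia, at 3.43 (1.39 to 10.9), 5.38 (3.70 to 8.01) and 2.42 (1.77 to 3.35). tbx5a, with ratios of 1.69, 1.71 and 3.83, and crabp1a, with 1.83, 1.61 and 1.48, were above 1 in every library but did not reach 2-fold in all of them.

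crabp2a was the exception among the 10 genes. Cycling cells held 125, 95.2 and 83.5 CPM of it against 13.8, 15.5 and 10.6 CPM in glia, a glia to cycling ratio of 0.110, 0.162 and 0.127. Cycling cells are deeper, with medians of 11953, 12681 and 12527.5 UMIs, but at an equal depth of 2000 UMIs a crabp2a UMI was still found in 12.9% of cycling cells of each library, against 2.74, 2.67 and 1.32% of glia. High levels were also found in 2 clusters that had too few markers for a name. A cluster led by igfbp5b and her12 held crabp2a at 202, 198 and 98.5 CPM, in 31.0, 29.9 and 16.1% of thinned cells, and a cluster led by tjp2b, her12 and metrn held it at 190, 205 and 81.2 CPM. crabp1a was higher in these clusters (769, 1030 and 709 CPM, and 590, 1197 and 1011 CPM) than in glia (461, 799 and 649 CPM) in every library. In contrast, cyp26a1 stood at only 10.4, 15.8 and 3.79 CPM in the cluster led by igfbp5b.

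In neurons the degrading enzymes and rdh10a were below their glial levels in every library, while dhrs3a in control neurons was not, at 14.6 CPM beside 14 CPM in glia. Against neurons, 6 genes were called higher in glia, against 12.5% of 12426 genes, and 0 were called lower, against 14.9%. In droplet data RNA released by other cells adds UMIs to every cell, so the ratios are set beside those of the glial genes glula, rlbp1a and apoeb. Their glia to neuron ratios were 5.31, 3.59 and 6.67 in the control, 13.3, 8.72 and 18.8 in Lws2-ablation, with 11.5, 6.46 and 13 in the library labelled Sws2. The ratios of cyp26a1 (8.41, 21.5 and 18.9) were above those of all 3 glial genes in every library, and those of cyp26c1 (6.53, 19.9 and 18) were above all 3 in the last 2 libraries. Those of rdh10a (4.29, 9.23 and 7.13) lay between them. The part of free RNA in these neuronal counts was not tested. aldh1a3 had ratios of 2.57, 7.27 and 8.91, below all 3 glial genes in the control and Lws2-ablation, and aldh1a2 of 2.63, 11.2 and 15.2, below all 3 in the control, from 11, 20 and 2 neuronal UMIs. When cells with the highest doublet scores were left out, the cyp26a1 ratio was 15.0, 62.6 and 33.5. When each library was clustered alone it was only 1.86 in the control, with 1.89 for cyp26c1, where 298 of the 1469 cells named neurons belonged to glia in the joint clustering.

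crabp1a had glia to neuron ratios of 3.11, 2.96 and 2.35, below those of all 3 glial genes in each library. Its levels differed between neuron classes: bipolar clusters held 45.6, 51.8 and 76.8 CPM, photoreceptor-lineage clusters 201, 262 and 225 CPM, and other inner retinal clusters 151, 297 and 574 CPM. Neurogenic precursors held it at 211, 310 and 370 CPM. The ratios of crabp2a (0.888, 1.03 and 1.07) were near 1 in the joint clustering but 1.12, 3.48 and 2.41 with each library clustered alone. Clusters with tjp2b and metrn among their top genes then counted as glia in Lws2-ablation and the library labelled Sws2, but not in the control. In the joint clustering the ratios of vax2 (1.1, 1.86 and 1.81), tbx5a (2.45, 4.59 and 1.34) and dhrs3a (0.959, 4.28 and 2.23) were not 2-fold in all libraries. Photoreceptor-lineage cells of the control held aldh1a3 at 37.0 CPM (interval 26.6 to 49.9, 42 UMIs), beside 42.6 CPM in glia, whereas those of Lws2-ablation held 6.15 CPM, with 2.71 CPM in the library labelled Sws2. The retinol-binding protein gene rbp4l, outside the 10, stood at 3620, 1969 and 2493 CPM in the summed neurons against 27.5, 33.2 and 20.5 CPM in glia. It was among the top genes of a photoreceptor-lineage cluster led by opn1lw2.

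Co-detection in single glia was read as a sign of retinal position, with UMIs of 2 genes sought in the same thinned cell. Free RNA can also put UMIs into a cell, so a cell with UMIs of 2 genes need not express both. In the control the glial shares of aldh1a3 and tbx5a were not separated from those in photoreceptor-lineage cells, taken here to gauge such background. Leaving out the cells with the highest doublet scores gave 6 pairs together and 6 apart by the rule below. All 45 pairs were described at 2000 UMIs per cell. A pair was called together or apart where the share of cells with either gene differed 2-fold or more between cells with and without the other, with an interval excluding 1, in all 3 libraries. By this rule 6 pairs were together, 4 were apart and 35 were neither. The rule was not run on pairs of other genes, so these counts have no background share beside them.

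rdh10a was found with both retinoic acid synthesising enzymes. In the control 49 of 61 glia with aldh1a2 also held rdh10a (80.3%), against 30.9% of glia without aldh1a2. The shares were 69.6 against 20.3% in Lws2-ablation, with 42.4 against 19.4% in the library labelled Sws2. Of glia with aldh1a3, 75.5, 64.1 and 55.7% held rdh10a, against 28.8, 18.8 and 18.5% of those without. The other pairs found together were aldh1a3 with dhrs3a (12.0 against 1.75%, 12.2 against 2.24% and 15.2 against 1.5%), rdh10a with dhrs3a (5.43 against 0.937%, 8.13 against 1.42% and 6.70 against 0.796%) and rdh10a with tbx5a (3.60 against 0.531%, 3.59 against 0.525% and 3.46 against 0.584%).

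The degrading enzymes were found together, and both were apart from rdh10a, but only cyp26c1 was called apart from aldh1a3. For aldh1a3 with cyp26a1 the ratios of shares were 0.610, 0.675 and 0.650, which was neither together nor apart. In thinned cells aldh1a2 was not called apart from either cyp26 gene. cyp26c1 was held by 33.8, 22.4 and 18.7% of glia with cyp26a1, against 10.3, 7.46 and 7.63% of glia without it. Among glia with rdh10a, 20.03, 11 and 5.83% held cyp26a1, against 42.9, 29.0 and 15.3% of glia without rdh10a. For cyp26c1 the shares were 7.88 against 23.6%, 3.40 against 13.4% and 1.30 against 11%. Of glia with aldh1a3, 12 of 274, 2 of 156 and 0 of 79 held cyp26c1, against 19.6, 11.9 and 9.44% of the rest, and a count of 0 in 79 cells allows up to 4.56%. cyp26c1 and dhrs3a made the fourth pair apart, with 5 of 873, 0 of 273 and 0 of 214 cyp26c1-positive glia holding dhrs3a, where the counts of 0 allow up to 1.34 and 1.71%. These calls depended on the depth of thinning. At 1000 UMIs only the 2 pairs with rdh10a were called apart, whereas without thinning 7 pairs were, among them aldh1a2 with each cyp26 gene but neither pair with rdh10a.

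**Figure D2:**
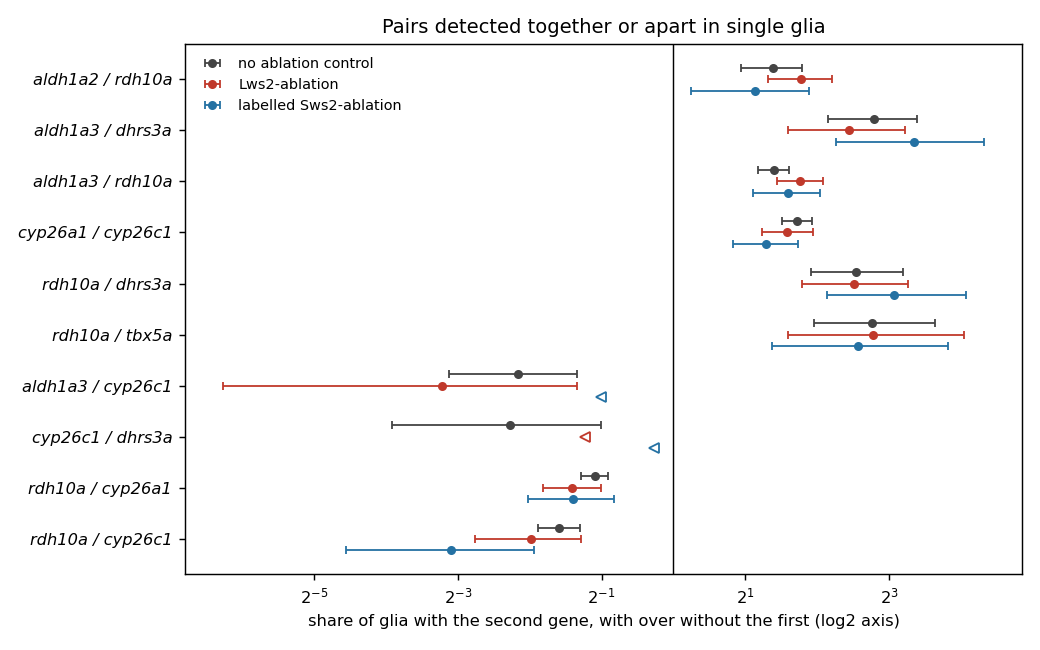
Ratio of the share of glia with the second gene of a pair among glia with over glia without the first (log2 axis), for the 10 pairs called together or apart in the 3 libraries, with 95% intervals and open triangles at the upper limit where 0 cells held both. The 6 upper pairs lie right of 1 and the 4 lower pairs, each with rdh10a, aldh1a3 or dhrs3a against a cyp26 gene, lie left of 1 in every library.

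The dorsal and ventral synthesising enzymes were rarely seen in the same cell, but at this depth the separation could not be shown for thinned cells. aldh1a2 and aldh1a3 shared 2, 1 and 0 thinned glia, where the product of their shares gives 3.57, 4.42 and 1.11. With all UMIs kept they shared 4, 2 and 1 glia, so that 2.92, 1.26 and 1.27% of aldh1a2-positive glia held aldh1a3, against 9.67, 9.72 and 4.92% of the rest. With all UMIs kept, and so without equal depth, each was found more often with the factor of its own side. Then 23, 31 and 7 glia held both aldh1a2 and tbx5a (16.8 against 2.56%, 19.5 against 2.05% and 8.86 against 2.36%), and 21, 45 and 28 held both aldh1a3 and vax2 (4.23 against 0.825%, 16.0 against 2.83% and 18.8 against 2.76%). These 2 pairs were not called in thinned cells. There 4, 6 and 1 glia held aldh1a2 with tbx5a, where the product of shares gives 0.913, 0.822 and 0.380. For aldh1a3 with vax2 they were 4, 11 and 8, where it gives 1.23, 2.56 and 1.45. tbx5a and vax2 shared 0 thinned glia in each library, where the product of their shares gives at most 0.495 cells, so the depth cannot show whether they exclude each other.

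Genes listed here for retinal position, outside the set, were read in glia as well. Ratios are of CPM, plus 10 CPM, in glia with against glia without a UMI of a gene of the set. These ratios use all glia with all UMIs kept, so depth was not made equal, whereas the shares given next are of thinned glia. The ephrin gene efnb2a, a dorsal marker, was found in 59.0, 52.2 and 45.5% of thinned aldh1a2-positive glia against 15.4, 12.6 and 13.7% of the rest, and in 6.20, 3.85 and 2.53% of aldh1a3-positive glia against 16.6, 14.4 and 14.5%. It was also low with cyp26a1 (6.06, 5.07 and 2.85% against 21.5, 16.6 and 15.9%). rdh10a-positive glia were above the rest for efnb2a (27.1, 24.4 and 23.8% against 10.9, 10.8 and 11.7%). fgf24, the growth factor gene listed here for the centre of the retina, was found in 72.8, 58.1 and 49.7% of cyp26a1-positive glia against 49.6, 31.6 and 25.5% of the rest.

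Of the 15 other dorsal genes compared, 4 were at least 2-fold higher in all libraries in glia with aldh1a2 (efnb2a, gdf6a, bambia and bambib, the first a membrane ligand and the others members or inhibitors of the BMP pathway), beside 0.187% of 11204 genes. With tbx5a 3 were higher (efnb2a, bambia and bambib), beside 0.0893%. With aldh1a3 6 were lower, among them tbx2a, tbx3a and bmp2b, beside 0.17% of all genes. With vax2 3 were lower, beside 0.0803%. cyp26a1-positive glia had 2 lower dorsal genes (efnb2a and bambia), beside 0.0357%, and cyp26c1-positive glia 1 (efnb2a), beside 0.0982%. The paper that reported these data named efnb2a, tob1a and fgf24 among genes of its quiescent glial clusters, with tob1a in glia expressing fgf24. Their place in the lists is therefore not independent of these cells. The dorsal and centre results are a description. By in situ hybridisation the paper found efnb2a in the dorsal and fgf24 in the central retina.

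The ventral list gave the opposite counts. Of 12 ventral genes compared, 7 were higher with aldh1a3 (vax1, ephb3a, bmpr1ba, bmpr1bb, smoc1, rgmd and inhbab), beside 0.259% of all genes, 6 with dhrs3a, beside 0.205%, and 5 with vax2, beside 0.0625%. The BMP antagonist gene smoc1 was 10.4, 6.33 and 7.32 times as high in glia with aldh1a3 as in glia without it. The paper that reported these data named bmpr1ba, smoc1, rgmd and inhbab as markers of a quiescent glial cluster with aldh1a3 and rdh10a. Their place in the list is therefore not independent of these cells, and the ventral counts are a description. Lower ventral genes were ephb2b and bmpr1ba with aldh1a2, beside 0.0893%, bmpr1ba and inhbab with cyp26c1, bmpr1ba with tbx5a, beside 0.0625%, and smoc1 with crabp1a (0.496, 0.261 and 0.435), beside 0.00893%. rdh10a-positive glia stood apart in having higher genes of both lists, efnb2a and bambia of the dorsal list and vax1, smoc1 and inhbab of the ventral list, beside 0.187%. By in situ hybridisation the paper placed rdh10a in the ventral retina and used it as a ventral marker. It also saw rdh10a in a few dorsal Müller glia. For comparison, 9 genes listed for the nasal or temporal retina were read as well. Of these, foxg1d was lower with aldh1a3 (0.342, 0.230 and 0.198), beside 0.17%, and foxd1 with tbx5a (0.421, 0.380 and 0.492), beside 0.0625%. fgf24 of the centre was also lower with aldh1a3 (0.410, 0.433 and 0.410).

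**Figure D3:**
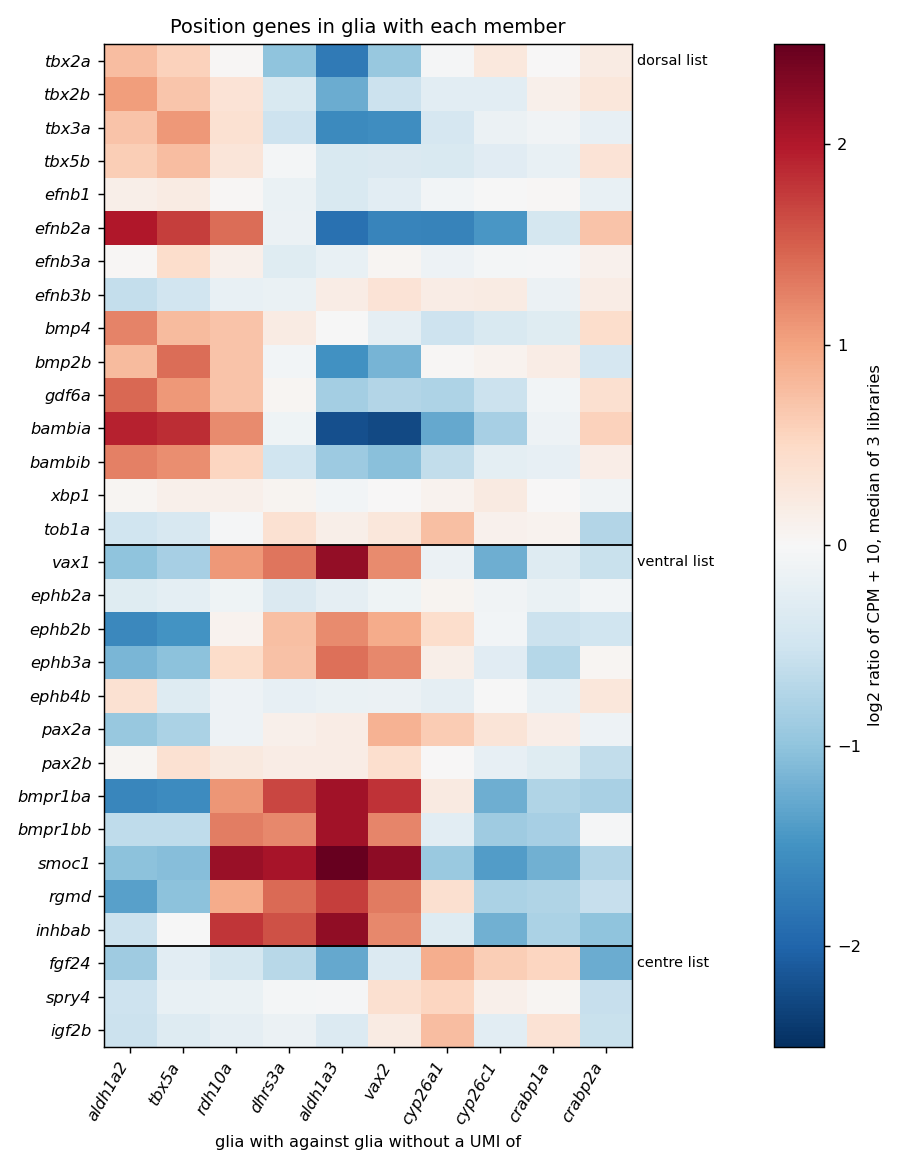
Log2 ratio of CPM (plus 10) in glia with against glia without a UMI of each of the 10 genes (columns), median of the 3 libraries, for dorsal, ventral and centre genes (rows), red for higher and blue for lower. All UMIs were kept, without thinning. At least 2-fold higher in all libraries were 4 of 15 dorsal genes with aldh1a2 and 3 with tbx5a. Of 12 ventral genes, 7 were so with aldh1a3 (smoc1 10.4, 6.33 and 7.32 times as high) and 5 with vax2. rdh10a had such genes in both lists.

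For each gene, the 5 genes with the most similar pattern were those with the highest ratio, taken as the lowest of the 3 libraries, among 11204 genes. For aldh1a2 they were RAMP1 (6.95, 5.81 and 5.31), bambia, ved, rdh10a and slit3, and for tbx5a RAMP1, bambia, efnb2a, cyp1b1 and pitpnaa. For aldh1a3 they were smoc1, vax1, nr2f5, bmpr1ba and zgc:165481, and for vax2 nr2f5, aldh1a3, bmpr1ba, smoc1 and vax1. rdh10a had RAMP1, smoc1, cyp1b1, aldh1a3 and mfap5, and dhrs3a had smoc1, aldh1a3, rdh10a, zgc:195173 and si:dkey-164f24.2. cyp26a1 was nearest to cyp26c1 (4.16, 3.51 and 3.67), followed by rgcc, anks1b, cxcl12b and ptgdsb.1, and cyp26c1 to rx3 (4.11, 3.70 and 3.19), followed by cyp26a1, stc2a, aqp1a.1 and fgf24. crabp1a had icn, txn, ifi45, plscr3b and psph, with ratios no higher than 2.42, and crabp2a had igfbp5b, zic2b, pou3f1, epcam and h3f3c.

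Within Müller glia several of the genes varied between clusters made without them. Of the 10, 9 differed 2-fold or more between the highest and the lowest glial cluster of at least 100 cells in every library, crabp1a being the exception. At a resolution of 0.4 the count was again 9, but with crabp1a in place of rdh10a. With each library clustered alone 6 genes differed so, and aldh1a3, tbx5a and vax2 were no longer among them. The share over all genes was not computed. For rare genes counting error can give such a spread. In control cluster 8 tbx5a and vax2 had 0 UMIs, which allows up to 9.97 CPM. Beside this stood 9.38 CPM of tbx5a in cluster 0 and 4.64 CPM of vax2 in cluster 6. In the largest glial cluster (cluster 0) cyp26a1 stood at 444.5, 232 and 127 CPM and in cluster 2 at 1399, 1187 and 653 CPM. cyp26c1 followed, at 167, 116 and 71.6 CPM in cluster 0 and 346, 311 and 174 CPM in cluster 2. aldh1a2 and the dorsal gene efnb2a went the other way, efnb2a at 155, 141 and 130 CPM in cluster 0 and 59.1, 25.9 and 63.6 CPM in cluster 2, aldh1a2 at 19.2, 26.5 and 11.7 CPM in cluster 0 and 0.725, 2.92 and 3.70 CPM in cluster 2, and crabp2a at 31.4, 34.3 and 17.1 CPM against 1.81, 1.46 and 2.47 CPM. Cluster 8, which held 162, 408 and 709 glia and was led by pbxip1b, palld and txn, was low in rdh10a (232, 71.1 and 37.9 CPM) and cyp26a1 (397, 195 and 110 CPM) but not in crabp1a (627, 997 and 822 CPM). In the control its intervals overlapped those of cluster 2 for rdh10a (186 to 287 beside 255 to 283) and of cluster 0 for cyp26a1 (336 to 467 beside 430 to 459). In the library labelled Sws2 cyp26a1 was lower still in the small cluster 22, at 60.0 CPM.

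**Figure D4:**
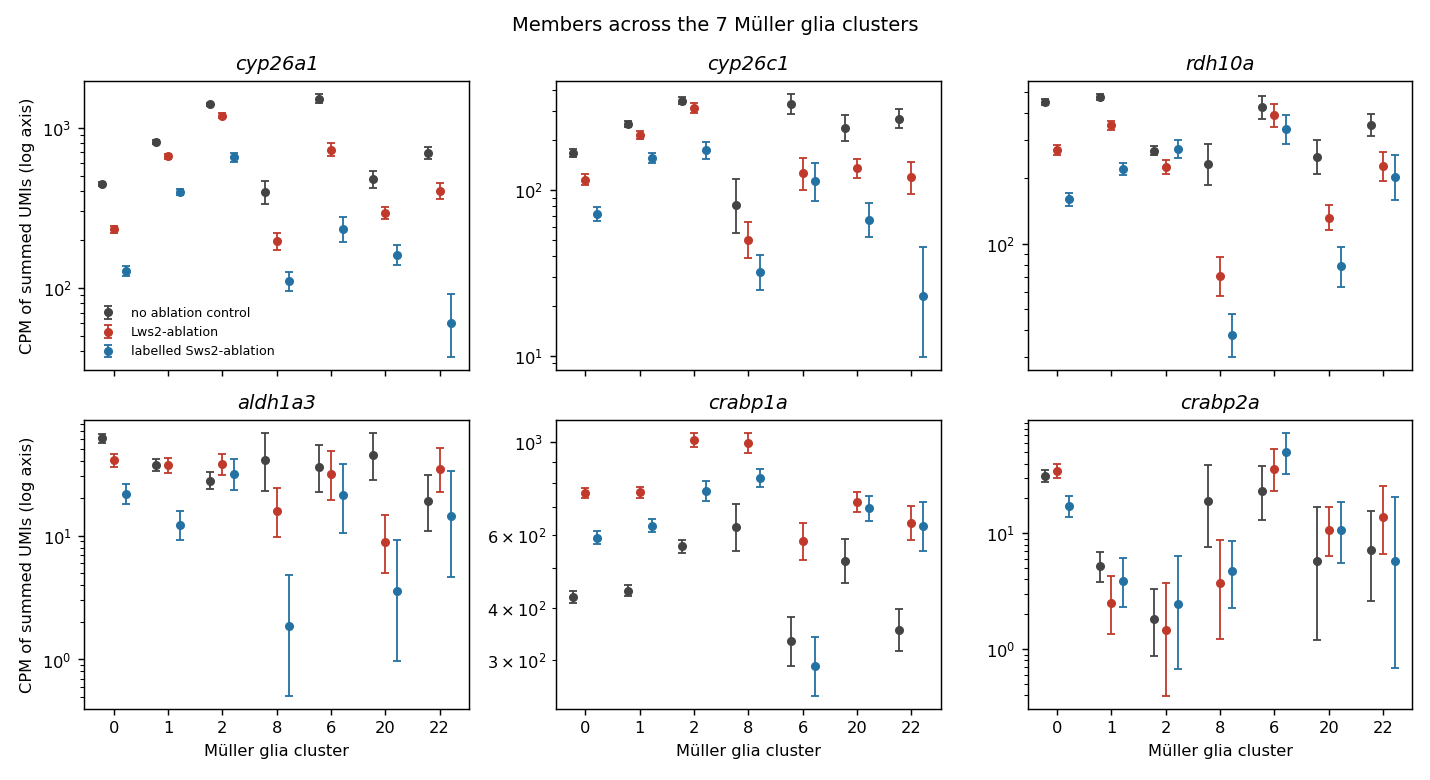
Levels of 6 genes (CPM, log axis) in the 7 Müller glia clusters of the 3 libraries, with exact 95% Poisson intervals. cyp26a1 is higher in cluster 2 (1399, 1187 and 653 CPM) than in cluster 0 (444.5, 232 and 127 CPM) in each library, whereas crabp2a is higher in cluster 0; cluster 6 is shallow and cluster 22 holds 124, 81 and 41 cells.

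Between libraries, both comparisons with the control used the same control library, so they are not independent of each other. In glia of Lws2-ablation against the control, 1 gene of the 10 was called 2-fold higher, against 18.6% of 14057 genes, and 0 lower, against 4.04%. That gene was vax2, at 2.92-fold the control (interval 2.15 to 4.02), and its share of thinned glia was 1.64 against 0.449%. aldh1a2 was 1.92-fold (1.61 to 2.28) and crabp1a 1.73-fold (1.69 to 1.77) the control, with intervals above 1 but under the rule. crabp2a (1.12, 0.952 to 1.31) and tbx5a (0.824, 0.642 to 1.05) had intervals that include 1, dhrs3a was 1.22-fold (1.05 to 1.43), and the crabp2a ratio was 3.65 when each library was clustered alone. In that clustering a cluster with tjp2b and metrn among its top genes counted as glia in Lws2-ablation but stayed unnamed in the control. cyp26a1 was 0.634, rdh10a 0.643, cyp26c1 0.697 and aldh1a3 0.793 of the control. The median over the 10 genes was -0.06 on the log2 scale, beside 0.25 over all genes.

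In the library labelled Sws2, 4 genes were called lower than the control, against 8.4% of 13784 genes, and 1 higher, against 16.1%. cyp26a1 stood at 0.315 of the control (interval 0.305 to 0.326), aldh1a3 at 0.372 (0.323 to 0.427), cyp26c1 at 0.415 (0.392 to 0.438) and rdh10a at 0.426 (0.408 to 0.444). vax2 was again the gene called higher, 3.18-fold (2.33 to 4.39). crabp1a was 1.41-fold, and crabp2a (0.763), dhrs3a (0.646), tbx5a (0.823) and aldh1a2 (0.837) were below 1, the last 2 with intervals that include 1. The crabp2a ratio was 1.72, in the opposite direction, when each library was clustered alone. A cluster with tjp2b and metrn among its top genes then counted as glia in this library but not in the control. The median over the 10 genes was -0.51 on the log2 scale, beside 0.09 over all genes.

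Other glial genes moved in the same libraries. glula was 0.529 and 0.292 of the control in Lws2-ablation and the library labelled Sws2, fgf24 0.498 and 0.391, apoeb 0.924 and 0.739, and rlbp1a 1.2 and 0.869, and the part these have in the results was not tested. EGFP was 1.02-fold in Lws2-ablation glia. Cluster makeup also differed, with cluster 8 holding 3.10, 13.4 and 23.0% of glia and cluster 2 holding 24.0, 15.7 and 9.85%. Within the 6 glial clusters with at least 50 cells in every library, cyp26a1 was called lower in the library labelled Sws2 in 6 of 6, rdh10a and cyp26c1 in 4 and aldh1a3 in 3. In cluster 2 the ratio was 0.467 for cyp26a1 and 0.502 for cyp26c1 but 1.01 for rdh10a and 1.13 for aldh1a3. Weighing these 6 clusters equally left 3 genes called lower, with rdh10a at 0.527. vax2 was called higher in all 3 clusters with enough counts, in both libraries. Counts in the other classes moved the same way. In cycling cells cyp26a1 stood at 82.2, 59.5 and 51.7 CPM and vax2 at 0.717, 1.34 and 3.23 CPM, in the same order of libraries. In neurons cyp26a1 stood at 97.7, 24.3 and 13.7 CPM and vax2 at 2.23, 3.86 and 4.32 CPM. rdh10a, aldh1a3 and cyp26c1 were also below the control in both classes of both libraries. So was the glial gene glula, at 1050, 329 and 172 CPM in cycling cells and 3530, 743 and 476 CPM in neurons. The part of free glial RNA in these counts was not tested, so they do not show whether the differences extend beyond glia. Control vax2 rests on only 5 UMIs in cycling cells and 7 in neurons.

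**Figure D5:**
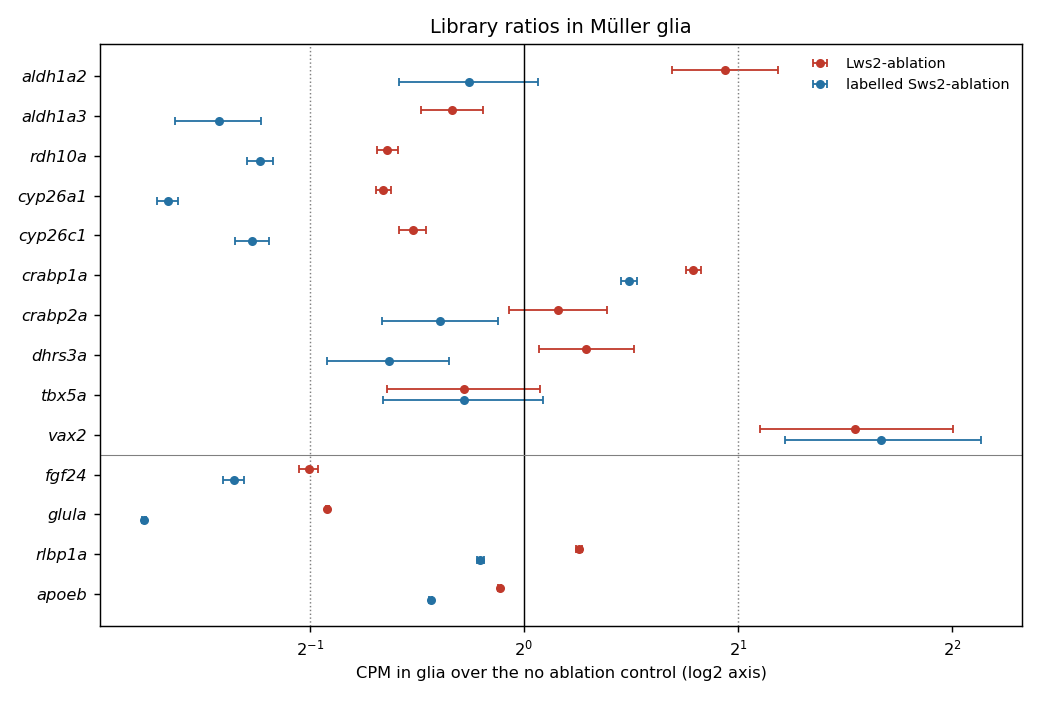
Ratio of CPM in Müller glia of the Lws2-ablation library and the library labelled Sws2 to the shared no ablation control (log2 axis), with 95% counting intervals and dotted lines at 2-fold, for the 10 genes and 4 glial genes below the line. vax2 lies right of 2-fold in both libraries (2.92 and 3.18) while cyp26a1, aldh1a3, cyp26c1 and rdh10a lie left of 2-fold only in the library labelled Sws2.

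Part of the wider retinoic acid pathway was higher in glia than in cycling cells, but against neurons it was divided. Of 27 other retinoic acid genes compared with neurons, 6 were higher in glia, beside 12.5% of all genes. Another 6 were lower (rbp2a, rbp4l, rxrgb, rdh8a, rdh8b and rdh12), beside 14.9%. Of these, rdh8a was also among the genes higher in glia than in cycling cells. Of 47 other retinoic acid genes listed, 44 were found and 25 had enough counts in glia and cycling cells. Of these 25, 13 were higher in glia than in cycling cells, beside 23.4% of all genes. The retinol transporter gene stra6 was the 1 lower, beside 9.75%. The binding protein gene crabp2b stood at 196, 239 and 197 CPM in glia against 21.5, 24.8 and 21 CPM in cycling cells, the reverse of crabp2a. rbp5, a retinol-binding protein gene, stood at 87.2, 226 and 154 CPM against 4.16, 9.72 and 4.90 CPM, and the receptor gene raraa at 108, 80.6 and 61.9 CPM against 12.3, 9.17 and 6.19 CPM. In Lws2-ablation glia 5 of 31 compared were called higher than the control (rbp4, rbp5, stra6, bco1 and rdh12), beside 18.6% of all genes, and 0 lower, beside 4.04%, so the list was near the background, with a median of 0.29 on the log2 scale beside 0.25 over all genes. In the library labelled Sws2, 2 of 30 were higher (stra6 and bco1), beside 16.1%, and 5 lower (cyp26b1, lratb.2, rdh5, rdh8a and rdh8b), beside 8.4%, with a median of -0.12 beside 0.09.

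Some genes of both retinal sides were lower than the control in Lws2-ablation, and some in the library labelled Sws2. The shares of all genes called lower were 4.04 and 8.4%, and those called higher 18.6 and 16.1%. In Lws2-ablation glia 4 of 15 dorsal genes were called lower, the BMP ligand genes bmp4 (0.472), bmp2b (0.326) and gdf6a (0.414) and tob1a (0.474), and 0 higher. Of 13 ventral genes 2 were lower (pax2b and inhbab) and 1 higher, the Eph receptor gene ephb4a (3.49-fold, from 41 and 16 UMIs). In the library labelled Sws2, 3 dorsal genes were lower and 1 higher, and 4 ventral genes were lower, pax2a (0.439), pax2b, bmpr1ba (0.465) and inhbab (0.433), with ephb4a again higher. The list medians on the log2 scale were -0.41 for dorsal and -0.32 for ventral genes in Lws2-ablation, and -0.52 and -0.84 in the library labelled Sws2.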

How the data were processed

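Libraries were droplet-based single cell 3′ RNA libraries of sorted retinal cells, 1 per condition. In the deposited matrices each value is a whole UMI count, as produced by the authors' Cell Ranger run (2.1.1 in the submitters' processing notes, 3.0.2 in the matrix headers) against GRCz11 with EGFP and RFP added, restricted to called cells; values were neither filtered further nor normalised. Which reads were counted, and with which strand setting, is not given in the sources used here.

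Cells with at least 200 genes were kept. Libraries were log-normalised and integrated in Seurat 5.3.0 (R 4.3.3; 2000 features, 30 dimensions, 15 principal components, resolution 0.8), with the 10 genes and the position genes among 97 genes left out of the features. The 27 clusters were named from marker lists: at least 3 markers in 25% of cells and 2-fold above other clusters, with 10 CPM added. The rule that a rival class must itself have 3 markers was set after alternative clusterings were seen and changed no name used here. Clusters 4 and 10, led by igfbp5b and by tjp2b, and others with ties stayed unnamed. Scrublet (scanpy 1.11.5) marked 0 doublets at its own threshold, so none were removed; an alternative left out 554, 885 and 498 cells with the highest scores.

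UMIs were summed per class and library and given as CPM with exact Poisson, ratio and binomial intervals (Python 3.11.15, scipy 1.17.1). Ratios needed 20 UMIs over both groups. For co-detection each glial cell was thinned once to 2000 UMIs, leaving out 549, 607 and 739 shallower glia. The rule for pairs replaced a first rule (1.5-fold of the product of shares, no interval) after its output was seen. All 10 genes were named in each comparison, list genes where they passed the fold rule, and the 5 most similar genes for each. The scripts were tested on simulated data. The genes, lists and classes were chosen with earlier results of these data known. Of the listed genes, 44 of 47 for retinoic acid and 13 of 15 ventral ones were matched by symbol. Promoter sequences were not analysed here.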

Additional observations from a re-analysis of the deposited data

Results flagged for a closer look

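dhrs3a in Müller glia was above the control in Lws2-ablation, at 1.22-fold (interval 1.05 to 1.43), and below it in the library labelled Sws2, at 0.646-fold (0.529 to 0.786). The opposite directions drew attention to it. The difference was not tested, since each condition is 1 library, and both ratios use the same control. With each library clustered alone the Lws2-ablation ratio was 0.952.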

How the results depend on the processing

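No paired analysis was possible because each condition is 1 library, and for the same reason no library could be left out. Of the counts of genes or pairs that answer a comparison, 104 of the values under alternatives stayed within 1.5 times the reported count and 9 did not, and no called ratio changed sign. Genes higher in glia than in neurons numbered 3 in place of 6 when each library was clustered alone. Genes higher in Lws2-ablation glia numbered 2 in place of 1 when each library was clustered alone (crabp2a and vax2) and at a resolution of 1.2 (aldh1a2 and vax2), and 3 at a fold of 1.5, where 2 in place of 0 were lower. For crabp2a the Lws2-ablation ratio was 3.65 with libraries clustered alone, against 1.12, and that of the library labelled Sws2, which was not called, was 1.72 against 0.763. In that clustering, clusters with tjp2b and metrn among their top genes were named glia in Lws2-ablation (821 cells) and the library labelled Sws2 (829 cells). The like cluster of the control (503 cells) stayed unnamed. The glia compared were thus not the same kinds of cells, and the part of this in the ratios was not tested. Pairs apart numbered 2 in place of 4 when cells were thinned to 1000 UMIs and 7 without thinning. Under the pair rule first written, 11 pairs were together and 14 apart. Depth limits the rare genes: tbx5a, vax2, aldh1a2, crabp2a and dhrs3a were each found in under 3% of thinned glia, and pairs among them rest on few cells. The low-depth glial cluster, the cluster mix, the EGFP-positive glia and the pair rule were alternatives chosen after seeing the data.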
